A study of Spirodela polyrhiza with 12 samples.

Results

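The genes described here are those whose transcript level in Spirodela polyrhiza, the giant duckweed, at least doubled at each of 2 temperature steps, indoor to middle and middle to high. Of 18099 genes in the deposited table, 218 did so and reached a level of 5, and 159 of them remained as members after the 59 most extreme were set aside by the rule given below. Per the labels, 12 leaf libraries fall into 3 groups of 4: plants at indoor temperature, which were the controls, plants at middle temperature and plants at high temperature. The sources used here give no degrees, exposure times or clone, and they name no other treatment.

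The members were chosen on the group means themselves, so their rise is a description and not a test. Each library's FPKM, which relates fragments to transcript length and sequencing depth, was divided by that library's median and multiplied by 15. The median was taken over the 12316 genes whose FPKM was 1 or more in every library. This value is called scaled FPKM below, and a gene's level is its mean over the libraries of a group after adding 0.5. A gene was kept if its highest level was at least 5 and its level was at least 2 times higher at middle than at indoor and at high than at middle temperature. The 59 genes left out by the rule met both steps as well, but their level at high temperature was both at least 16 times that at indoor temperature and at least 200. They serve below for comparison.

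In plants, heat is known to set off a graded response. Heat shock transcription factors bind inverted GAA repeats in promoters and raise transcripts of chaperones, which refold or remove damaged proteins, while many other transcripts are lowered. Chaperone transcripts are known to climb further as the heat grows stronger. The deposited table gives identifiers without gene names, so none of the 159 members can be placed in a named pathway here and no role is given to any of them. The defining genes of leaf tissue could not be looked up for the same reason.

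The libraries held total estimated counts from 23655239 to 32711880. The reference genes had a median FPKM of 22.2 ± 0.54 at indoor temperature, 24.0 ± 1.62 at middle and 13.8 ± 1.22 at high temperature (SD, n = 4 each). In the same groups the 59 genes left out by the rule held 0.458% ± 0.13, 2.88% ± 0.90 and 25.95% ± 3.08 of the counts. A few transcripts thus took up much of the high-temperature libraries. The median FPKM of the reference genes was also lower there before scaling, and how much of this follows from the former was not tested. In bulk samples, fewer cells of a type and less RNA per cell cannot be told apart. Among the libraries, middle replicate 1 stood apart for the members, as described below.

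The 159 members rose over a wide range of levels. Their level, in scaled FPKM + 0.5, had a median of 3.36 at indoor temperature, 11.9 at middle and 45.5 at high temperature. The ranges were 0.50 to 641 at indoor temperature, 1.38 to 1617 at middle and 6.12 to 8811 at high temperature. As a group they held 0.683% ± 0.06 of the counts at indoor temperature, 2.25% ± 0.29 at middle and 4.82% ± 0.66 at high temperature (SD, n = 4 each). Many were scarce in the controls, where 56 members had a level under 2 and 15 had a level of at least 50. At high temperature 25 members had a level of at least 200 and 46 stayed under 20.

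**Figure D1:**
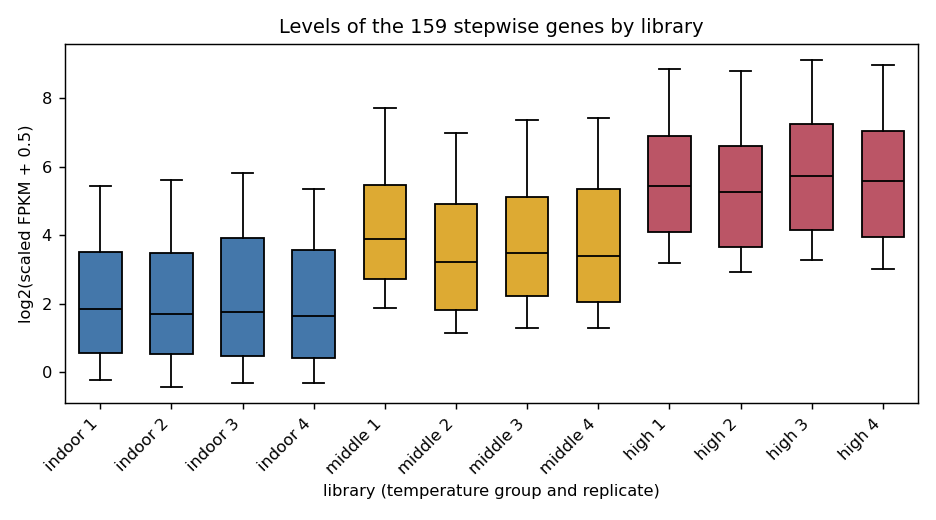
Level of the 159 stepwise genes in each library, as log2(scaled FPKM + 0.5). Boxes span the quartiles, the line is the median and whiskers run from the 10th to the 90th percentile. The median scaled FPKM lay between 2.64 and 3.07 in the indoor, 8.77 and 14.2 in the middle and 38.1 and 52.4 in the high-temperature libraries.

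The middle-to-indoor ratio of levels had a median of 2.82 and ran from 2.02 to 17.9. The high-to-middle ratio had a median of 3.14 and ran from 2.00 to 36.0. With this scaling and the added constant, the second step was the larger in 85 members and the first in 74. This balance changes with FPKM as deposited, as given below. As fitted, the medians were in the other order, with log2 fold changes of 1.78 at the first step and 1.73 at the second. The added constant lowers ratios most in scarce members, and its share in this difference was not tested. Ratios of at least 4 were reached by 36 members at the first step, by 44 at the second and by 14 at both. The level at high temperature over that at indoor temperature had a median of 10.03, with quartiles of 6.84 and 15.0.

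**Figure D2:**
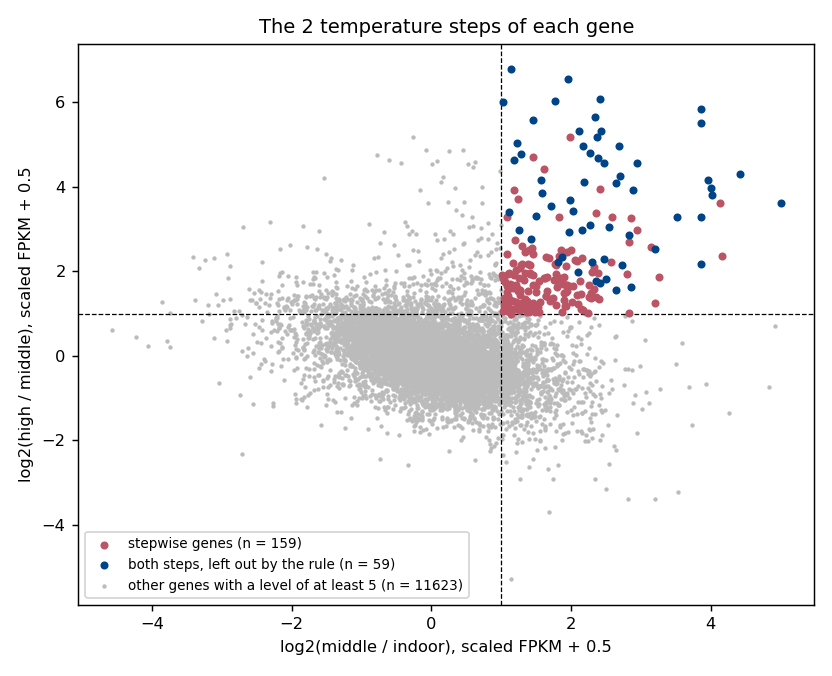
Ratio of levels for the first step (middle over indoor, x axis) and the second step (high over middle, y axis), both on a log2 scale, for genes with a highest level of at least 5. Dashed lines mark a ratio of 2, beyond which lie the 159 stepwise genes and the 59 left out by the rule.

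Values close to the thresholds of both steps form a continuum with the rest of the genes. For the first step, the member nearest the threshold had a ratio of 2.02 and the nearest gene outside had 1.9996. For the second step these ratios were 2.0001 inside and 1.976 outside. The lowest high-temperature level among members was 6.12, and the nearest gene below the minimum stood at 4.95. At the upper border, the member with the largest rise among those with a level of at least 200 had a ratio of 15.8, against 16.4 for the nearest gene left out. Among genes with both steps and a high-to-indoor ratio of at least 16, the nearest member had a high-temperature level of 177. The nearest gene left out had 219.

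The most abundant member was Spipo4G0005400.v2. Its scaled FPKM was 502, 557, 937 and 567 in the indoor, 2153, 1186, 1744 and 1381 in the middle and 6752, 7538, 10578 and 10376 in the high-temperature libraries. The 3 groups did not overlap, and indoor replicate 3 lay well above the other indoor libraries. Its fitted log2 fold change was 3.77 ± 0.31 (SE) between high and indoor temperature. Spipo5G0018400.v2, the next, had 261, 262, 319 and 301 at indoor, 1072, 632, 862 and 999 at middle and 4020.2, 3553, 4926 and 5619 at high temperature. Its indoor libraries were close together, and its lowest middle library was above all of them. Its level was 3.11 times higher at middle than at indoor and 5.08 times higher at high than at middle temperature. With Spipo10G0025900.v2, the third, these genes held 25.95% ± 1.60 of all member counts at indoor temperature, 25.03% ± 0.86 at middle and 33.9% ± 2.84 at high temperature.

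With 0.5 added to each value, the largest first step belonged to Spipo5G0022600.v2, at 17.9 times, close to 17.5 times for Spipo1G0087300.v2. As fitted, the first step of these genes was in the other order, with log2 fold changes of 5.05 and 5.38. For Spipo5G0022600.v2 the ratio rests on indoor counts of 3, 10, 8 and 18, at about the floor of 12 counts used below. It was almost silent in the controls, with a scaled FPKM of 0.115, 0.551, 0.363 and 0.889, and had 20.2, 15.96, 16.6 and 15.4 at middle temperature. At high temperature it had 99.6, 73.2, 92.4 and 96.0. The middle libraries agreed closely, which was not the case for the next gene. Spipo1G0087300.v2 had the largest ratio of levels from end to end, at 215 times between high and indoor temperature after adding 0.5. That constant is larger than each of its indoor values, which rest on counts of 27, 15, 34 and 21. As fitted, this rise had a log2 fold change of 9.05. The gene cannot be ranked against Spipo10G0025300.v2, described next, which had no indoor counts. Its scaled FPKM was 0.382, 0.208, 0.422 and 0.267 at indoor, 28.7, 6.37, 12.002 and 8.17 at middle and 155, 134, 238 and 176 at high temperature. Middle replicate 1 was more than 2 times as high as any other middle library, and without overlap the high-temperature libraries lay above it.

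The largest second step was that of Spipo10G0025300.v2, at 36.0 times. It had a count of 0 in all 4 indoor libraries. At middle temperature its scaled FPKM was 2.80, 0, 1.099 and 2.05, and at high temperature it was 55.6, 58.1, 80.3 and 90.3. Middle replicate 2 was thus level with the controls, while all high-temperature libraries stood far above. Against a floor of 12 counts in each indoor library, it was at least 185-fold higher at high than at indoor temperature. Spipo1G0109000.v2 followed with a second step of 26.1 times. It had 0.291, 0.239, 0.359 and 0.658 at indoor, 2.45, 1.78, 2.13 and 1.36 at middle and 52.8, 43.0, 106 and 49.3 at high temperature. Its first step was 2.74 times after adding 0.5, a constant larger than most of its indoor values. As fitted, that step had a log2 fold change of 2.24. High replicate 3 was about 2 times as high as the other high-temperature libraries.

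**Figure D3:**
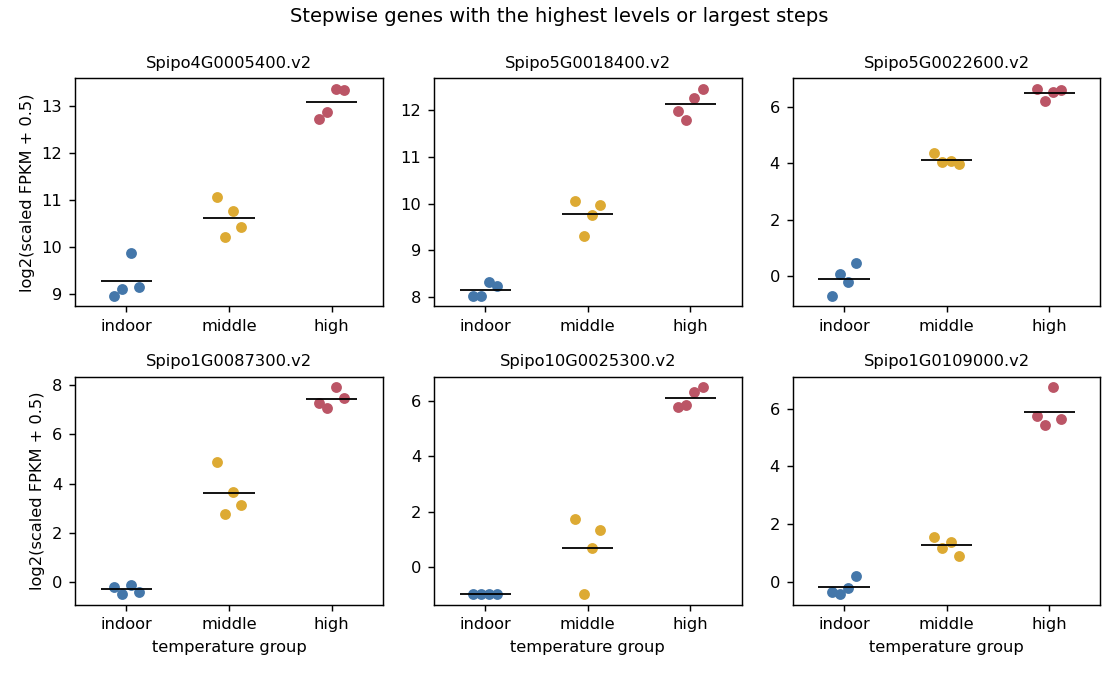
log2(scaled FPKM + 0.5) of 6 members in each library, by temperature group. Points are libraries and lines are means of the log2 values; each panel has its own y axis. Spipo4G0005400.v2 and Spipo5G0018400.v2 were the most abundant members, and the others had the largest steps after 0.5 was added.

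Besides Spipo10G0025300.v2, only Spipo12G0030400.v2 among the members had a count of 0 in all indoor libraries. It was a scarce transcript also when induced, with a scaled FPKM of 4.35, 1.69, 1.56 and 0.226 at middle and 12.5, 7.37, 9.47 and 7.53 at high temperature. It was at least 7.12-fold higher at high than at indoor temperature against the floor of 12 counts per library. For the first step the same bound was only 1.51-fold, under the ratio of 2 in the rule. Another 12 members had a count of 0 in some but not all of the indoor libraries, 1 member had a count of 0 in a middle library and 0 members did so in a high-temperature library.

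All 159 members passed the filter on low values used for the fit across genes, as did 15209 of the 18099 genes. By the quasi-likelihood test of edgeR, adjusted after Benjamini and Hochberg, 159 members were called higher at high than at indoor temperature, against 17.1% of all genes tested. At the first step 154 members were called higher, against a background of 19.2%. At the second step 153 were called higher, against 15.9%. The rule used these same contrasts, so nothing is read from these counts, and the 3 comparisons share libraries. Fitted log2 fold changes of members had medians of 3.56, 1.78 and 1.73 for high over indoor, middle over indoor and high over middle, beside medians of -0.04, -0.02 and 0.0033 over all genes tested. With both genes that had 0 counts at indoor temperature set to their bound, the first of these medians was 3.54 and that of the first step 1.78.

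The libraries of neighbouring groups separated for most members. Scaled FPKM did not overlap between high and indoor libraries in 159 members, against 16.3% of all genes tested that were higher without overlap. Between middle and indoor libraries 148 did not overlap, against 20.5%, and between high and middle libraries 151, against 15.9%. At both steps at once the count was 143 members, against 2.97% of genes tested. These counts too follow from the rule.

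The second step depended on the scaling of the libraries. In FPKM as deposited, with no division by a library median, the level of all 159 members was still higher at high than at middle temperature, by a median of 1.87 times and at least 1.17 times. Only 65 members then reached a ratio of 2. At the first step all 159 members reached a ratio of 2, with a median of 3.06 and a lowest ratio of 2.17. The first step was then the larger in 140 of the 159 members. The ratio of high to indoor temperature had a median of 6.23 in FPKM as deposited and ran from 2.66 to 142. Direction at both steps was the same with either scaling, while the size of the second step was not. The kept direction follows from the rule, since the change of scaling shifts all genes by nearly the same factor. Applied to FPKM as deposited, the rule found 86 genes, 63 of them among the 159 members, and with TMM scaling it found the same 159 genes.

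Genes chosen on some libraries were nearly all higher again in libraries that had no part in the choice. For this, the rule was applied without the libraries of a given replicate number in each group, and the ratios were then read in those libraries alone. The 4 rounds chose 153, 162, 166 and 167 genes with replicates 1, 2, 3 and 4 left out in turn, of which 133, 139, 138 and 144 were members. At the first step the ratio was above 1 for 98.7%, 96.3%, 98.2% and 98.2% of the chosen genes, against 48.3%, 53.3%, 52.3% and 50.6% of all genes tested in the same libraries. At the second step it was above 1 for 98.7%, 95.7%, 97.0% and 99.4%, against 53.1%, 48.3%, 46.6% and 49.9% of all genes tested.

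The size of the steps held less evenly than their direction. The median ratio of the first step in the libraries left out was 3.80, 2.4996, 2.70 and 2.86 in the 4 rounds, beside 0.977, 1.05, 1.03 and 1.01 for all genes tested. That of the second step was 2.52, 3.26, 3.83 and 3.56, beside 1.03, 0.978, 0.959 and 0.999. A ratio of at least 2 was reached by 67.3% to 85.6% of the chosen genes at the first step and by 64.7% to 88.0% at the second. The round that read the libraries numbered 1 gave both the largest first and the smallest second step, and it is the round that holds middle replicate 1.

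Within the groups, many members had their highest value in the same library. The rule used group means that include these libraries, so the shares are also given below for genes chosen without the library in question. At middle temperature, replicate 1 was the highest of the 4 libraries for 112 of 159 members (70.4%), against 22.6% of all genes tested. Replicate 2 was the lowest for 91 members (57.2%), against 29.2% of all genes tested. The median member lay 0.33 log2 units above its group mean in middle replicate 1 and 0.30 below in replicate 2 (-0.30). At high temperature, replicate 3 was the highest for 91 members (57.2%), against 23.8% of genes tested, and replicate 2 the lowest for 95 members (59.7%), against 25.2%. No indoor library stood out to this degree: replicate 3 was the highest for 34.4% of 157 members with a value above 0, against 27.5% of genes tested.

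Genes chosen by the rule without a library gave like shares in it, a count added after seeing the data. Middle replicate 1 was the highest middle library for 100 of the 146 genes chosen without it (68.5%), and middle replicate 2 the lowest for 94 of 156 (60.3%). High replicate 3 was the highest for 82 of 157 (52.2%), and high replicate 2 the lowest for 104 of 168 (61.9%).

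At middle temperature the genes left out by the rule had the same libraries at either end. For these 59 genes left out by the rule, middle replicate 1 was the highest in 91.5% and middle replicate 2 the lowest in 88.1%, with median deviations of 0.64 and -0.62 log2 units. At high temperature replicate 4 led for 57.6% of them and replicate 3 for 37.3%. High replicate 2 was the lowest for 76.3% of them, so its low place was not particular to the members. These 59 genes also had an order at indoor temperature, where replicate 3 was the highest for 78.0%, a stronger lead than among the members. Members whose first step was the larger had middle replicate 1 as the highest in 67.6%, and those whose second step was the larger in 72.9%. What sets these libraries apart was not tested.

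**Figure D4:**
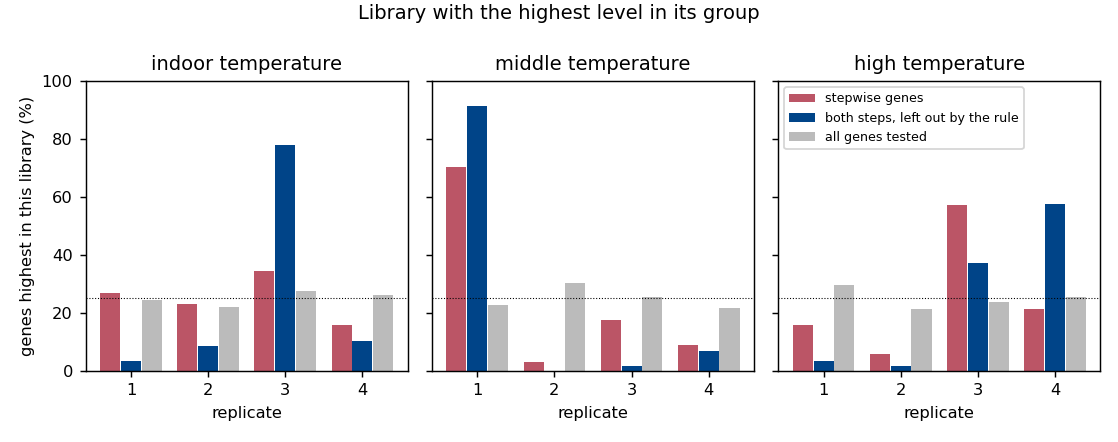
Share of genes whose highest scaled FPKM within a temperature group falls in each replicate, in percent, for the 159 stepwise genes, the 59 genes left out by the rule and all genes tested, each where a value above 0 was found in the group. The dotted line marks an even share. Middle replicate 1 was the highest for 70.4% of the stepwise genes and 22.6% of all genes tested.

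With middle replicate 1 left out, 146 genes met the rule, 136 of them among the 159 members. This was the lowest number of members kept among the 12 rounds that left out a library, in which 136 to 159 were kept. The coefficient of variation between libraries of a group had a median of 22.9% over members at indoor temperature, 24.4% at middle and 22.7% at high temperature. These medians cover the 127 members between the 10th and 90th percentile of their level. Other genes tested within the same ranges of level had medians of 21.3%, 16.3% and 18.9%. At middle temperature the second-step-only genes described next had 24.4%, as the members did, and the genes left out by the rule had 45.04%. These ranges of level are wide, and genes within them were not matched on level.

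Of the 450 genes whose level reached 5 and was at least 4 times higher at high than at indoor temperature, 35.3% were members. Genes with both steps reach a ratio of 4 by definition, so the shares given here follow in part from the rule. The 59 genes left out by the rule made up 13.1%. Another 140 genes (31.1%) reached a ratio of 2 at the second step only, and 92 (20.4%) at the first step only. Middle replicate 1 was the highest middle library for 69.1% of the 139 second-step genes with a value there, close to the share of members, and for 42.4% of the first-step genes. Middle replicate 2 was the lowest for 30.4% of the first-step genes, and their highest high-temperature library was most often replicate 1, at 35.9%. High replicate 2 was the lowest for 55.4% of the first-step and 61.4% of the second-step genes. High replicate 3 was the highest for 47.1% of the second-step genes.

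Transcript length, which the ratio of deposited count to FPKM gives relative to other genes, was ordinary among the members. Their median was 1.04 times that of all genes tested, with quartiles of 0.563 and 1.66, beside quartiles of 0.587 and 1.54 for all genes tested. The 59 genes left out by the rule had a lower median, of 0.531. The genes that rose at the first step only and at the second step only had medians of 0.669 and 0.810.

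Members had neighbouring identifiers more often than the table as a whole, a count for which no test was made. Identifiers consist of a first number, the letter G and a second number that runs in steps of 100, and neighbours are here the nearest identifiers in the table with the same first number. The files hold no gene positions. Of the 159 members, 33 (20.8%) stood beside another member, forming 17 pairs and including a run of 3 genes, against 266 of the 15050 other genes tested (1.77%). Genes with a single step were not far from this: 14 of the 92 first-step genes (15.2%) stood beside another of their own kind, and 22 of the 140 second-step genes (15.7%). Beside a gene left out by the rule stood 23 members (14.5%), against 0.710% of all genes tested. Counting both kinds of neighbour, the numbers were 53 members (33.3%) and 2.64% of all genes tested. Among all 218 genes with both steps, 82 (37.6%) stood beside another of them. Members were otherwise spread widely, under 32 of 33 first numbers.

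Paired members were not uniform in level. The ratio between the levels of the 2 genes of a pair at high temperature had a median of 2.93 and ran from 1.13 to 22.3. In 7 of 17 pairs the levels lay within a factor of 2, and in 2 pairs they were more than 10 times apart. Relative transcript lengths differed by a median factor of 1.69. The most abundant pair was Spipo17G0043000.v2 and Spipo17G0043100.v2.

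Spipo17G0043000.v2 averaged a scaled FPKM of 143 ± 40.3 at indoor temperature, 384 ± 60.7 at middle and 1484 ± 395 at high temperature (SD, n = 4 each). Its neighbour Spipo17G0043100.v2 averaged 47.9 ± 9.87, 208 ± 42.5 and 485 ± 47.8 in the same groups. Both rose about 10 times from end to end, by 10.3 and 10.03 times, but with a different balance of steps. The first gene had ratios of 2.67 and 3.86 at the first and second step, and the second gene 4.31 and 2.33. In the pair Spipo28G0001900.v2 and Spipo28G0002000.v2, by contrast, both steps were alike, with ratios of 3.13 and 2.66 for the first gene and 3.15 and 2.88 for the second.

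Members beside a gene left out by the rule were mostly less abundant than that neighbour, a gap that follows in part from the rule, which sets the level of genes left out at 200 or more. At high temperature their level was a median of 2.10% of the neighbour's, under 10% in 18 of 23 cases and under 1% in 9. Their own median level at high temperature was 56.8, beside 42.9 for the other 136 members. These 23 members had a median high-to-middle ratio of 4.74, and the others 3.07. Of the 12 members with a second step of at least 8 times, 6 stood beside a gene left out by the rule.

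Spipo20G0008400.v2 and Spipo20G0008600.v2 stand on either side of Spipo20G0008500.v2, which had levels of 11.8 at indoor temperature, 45.8 at middle and 4288 at high temperature. Spipo20G0008400.v2 had levels of 1.17, 6.22 and 96.6 in the same groups, and Spipo20G0008600.v2 had 0.54, 1.44 and 6.38. At high temperature these were 2.25% and 0.149% of the level of the gene between them. The indoor counts of Spipo20G0008600.v2 were 3, 0, 0 and 0, under the floor of 12 counts. Spipo1G0087300.v2, described above, stood beside Spipo1G0087200.v2, which had levels of 82.4, 325 and 2469. Overlap between such genes, and whether the counting divided reads between them, was not tested.

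**Figure D5:**
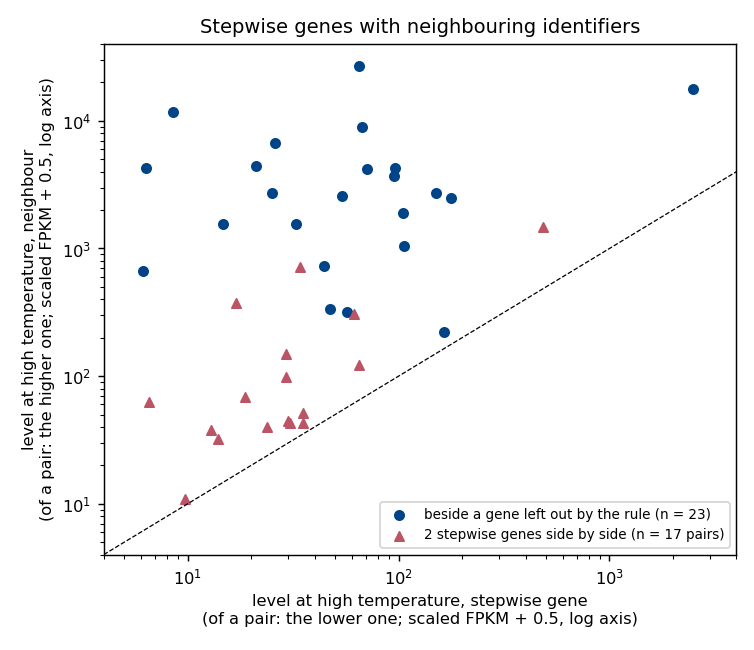
Level at high temperature (scaled FPKM + 0.5, both axes logarithmic) of 23 stepwise genes against that of the neighbouring gene left out by the rule, and of the 17 pairs of neighbouring stepwise genes, the lower against the higher of each pair. The dashed line marks equal levels, and 18 of the 23 members lay under 10% of their neighbour's level.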

How the data were processed

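Poly(A)-selected RNA from 12 leaf libraries was sequenced as read pairs, per the labels' protocols. Per the submitters' processing notes, UMI-tools, cutadapt 1.9, StringTie 1.3.4d, HISAT2 2.0.4, edgeR and DESeq2 were used, in roles not stated. The sources used here do not state the genome build, annotation or strand setting, so near-identical and overlapping genes are uncertain. Per the file headers, the deposited table holds an FPKM and a count column per library. The deposited values are estimated counts, already whole, and were used as deposited. Among counts above 0, the value 4 was the most frequent and was taken as the count of a single fragment. Counts of 0 were therefore read as up to 12 counts in a library (3 times 4, for 3 fragments). This floor covers counting error only. Read this way, the deposited counts and their totals are larger than numbers of fragments.

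The members and lists were chosen with earlier results of these data known. Fits used edgeR 4.0.16 in R 4.3.3 (quasi-likelihood, robust, TMM scaling), all 12 libraries and 3 group terms. Tested were genes whose FPKM reached 1 in 4 or more libraries, and p-values were Benjamini-Hochberg adjusted, with calls at 0.05. The fit was tested on simulated data with equal numbers of rises and falls at high temperature. That simulation was not built with a shift like that of the genes left out by the rule, so it does not cover it. Ratios, ranks and neighbours were computed in Python 3.11.15. The labels do not say whether libraries came from separate cultures, so p-values reflect only differences among these libraries, possibly technical ones. No replicate libraries had identical counts.

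Genes named were the members with the highest level at high temperature (8), the largest overall rise (8), the largest first and second steps (4 each) and the lowest indoor level (4). Since identifiers carry no names, mostly the first 2 of each were printed. The members named as neighbours were chosen after their values were seen. Alternatives were library totals, DESeq2 1.42.0, limma 3.58.1, no filter, a replicate block, other scalings and constants, and leaving out each library.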

Additional observations from a re-analysis of the deposited data

Results flagged for a closer look

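In 7 of 76 sets of 4 libraries, covering the named members and the library measures, the gap between a single library and its nearest neighbour, divided by the range, exceeded Dixon's 95% critical value. Among independent sets of normally distributed values, about 1 in 20 would be marked. The named members were picked for extreme values and share libraries, so no excess over that rate is read here. At middle temperature, replicate 1 was the outlying library for Spipo9G0003400.v2, with a scaled FPKM of 22.2 against 9.64 to 10.5 (a gap of 0.933 of the range). It was so too for Spipo12G0066200.v2, with 265 against 193 to 202 (0.871). At high temperature, replicate 3 stood apart for Spipo1G0109000.v2, with 106 against 43.0 to 52.8 (0.846).

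At indoor temperature, replicate 3 stood apart for Spipo4G0005400.v2, with 937 against 502 to 567 (0.849), and for Spipo0G0021300.v2, with 2.86 against 1.14 to 1.35 (0.879). In Spipo20G0008600.v2 and Spipo12G0030500.v2 indoor replicate 1 had counts of 3 and 2 and the other 3 indoor libraries had 0, a gap of 1 of the range in both. These counts lie under the floor of 12 counts per library.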

How the results depend on the processing

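The number of members called stayed within 1.5 times of the reported count under all 17 alternatives in each comparison. It fell furthest for high against middle temperature, where 153 members were called, to 110 with library totals and 118 with limma on log2(FPKM + 1). With the replicate number as a block, 159, 156 and 154 members were called for high against indoor, middle against indoor and high against middle. The correlation of same-numbered deviations ran from -0.276 to 0.267 and was over 0.1 in 3 of 12 cases. Such weak correlations give no sign that the numbers pair the libraries, but cannot exclude it. Leaving out each library in turn gave 159 members called for high against indoor, 150 to 156 for middle against indoor and 140 to 154 for high against middle. It gave 146 to 171 genes meeting the rule, and 136 to 159 of the members.

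Membership depended on the scaling. With FPKM as deposited 86 genes met the rule, 63 of them members, and with the median taken over genes whose FPKM was 10 or more in every library 125 did, 104 of them members. The cause was not tested beyond these settings. With a constant of 0.1 or 1 in place of 0.5, 177 and 138 genes met it, and with geometric means 164. For the 21 named members, 1058 of 1071 fitted values stayed on the same side of the threshold with the same direction, 13 kept the direction only and 0 reversed.

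The share of genes with both steps that stood beside another such gene, 37.6% with the median scaling, was 33.1% with FPKM as deposited and 33.3% without middle replicate 1. Middle replicate 1 was the highest middle library for 88 members (55.3%) with FPKM as deposited, against 12.9% of all genes tested. With TMM-scaled FPKM it was so for 117 members (73.6%), against 25.5% of all genes tested. These last alternatives were chosen after seeing the data.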
